A study of Mus musculus with 6 samples.

Results

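The sarcomere and cardiac ion channel genes are 33 genes whose protein products make a heart muscle cell contract and carry its electrical signal. They were chosen by name, as 21 genes of the contractile apparatus (Myh6 to Nebl) and 12 conduction genes (ion channels, connexins and a calcium exchanger), out of 21631 protein-coding genes on the 20 chromosomes that carry peaks. For each gene, the peaks of GLI3R ChIP-seq with a summit within 50 kb of the gene interval were counted. In either condition 17 of the 33 genes had at least 1, and 7423 of the 21631 protein-coding genes did. The cells were cardiac progenitors derived from mouse embryonic stem cells of the A2Lox.cre strain, all of the line GLI3R-FTA, in which doxycycline turns on a tagged repressor form of GLI3. They were collected on day 6, either after 500 ng/ml doxycycline for 24 h from day 5 or without treatment, and in both conditions chromatin was recovered on streptavidin beads. The untreated pull-downs are thus the control without induction, and their peaks are not taken as GLI3R sites. Whether any tagged protein was made without doxycycline was not analysed here. There were 2 pull-down libraries and 1 input library per condition and 1 peak list per condition, so no value below has a replicate error and no test between conditions could be made. All groups carry the inducible construct, and results rest on this 1 line. Peak lists hold no expression values, so whether these progenitors already transcribed the genes was not analysed here.

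In the sarcomere, myosin thick filaments slide along actin thin filaments, the troponin and tropomyosin complex opens the thin filament when calcium rises, and the Z-disc anchors both ends. Calcium enters through voltage-gated channels, potassium channels restore the resting potential, pacemaker channels start the next beat, and connexins pass current between cells. Many of the sarcomere genes are switched on as cardiac progenitors become cardiomyocytes. GLI3 in its repressor form occupies GLI sites in the absence of Hedgehog ligand and keeps their target genes low.

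With doxycycline 11 of the 33 genes (33.3%) lay within 50 kb of a summit, and without treatment 9 of 33 (27.3%) did. Over all protein-coding genes the shares were 20.3% with doxycycline and 19.1% without. Among genes used as markers of cardiomyocytes, the myosin heavy chains Myh6 and Myh7, cardiac troponin T (Tnnt2), cardiac actin (Actc1) and myosin binding protein C (Mybpc3) had no summit within 50 kb in either condition, while the light chains Myl2, Myl3 and Myl7 and alpha-actinin (Actn2) had one in at least 1 list. Of the 17 genes near a summit, 8 were near a doxycycline summit only, 6 near an untreated summit only, and 3 (Myl2, Des and Kcnq1) near both. Of all genes, 15.3% were near a doxycycline summit only, 14% near an untreated summit only and 5.03% near both. At those 3 genes the closest doxycycline and untreated summits lay 7.66 kb, 8.68 kb and 147 kb apart, and no peak near any of the 33 genes overlapped a peak of the other condition. In the whole lists such overlaps were also few, with 73 of 3640 doxycycline peaks (2.01%) meeting an untreated one and 75 of 4379 untreated peaks (1.71%) a doxycycline one. The remaining 16 genes (48.5%, against 65.7% of all genes) had no summit within 50 kb in either list. The genes just inside the 50 kb limit were Cacna1d with doxycycline, at 46.4 kb, and Cacna1g without, at 41.4 kb. Just outside were Tnnc1 at 58.0 kb with doxycycline and Acta1 at 84.9 kb without.

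**Figure D1:**
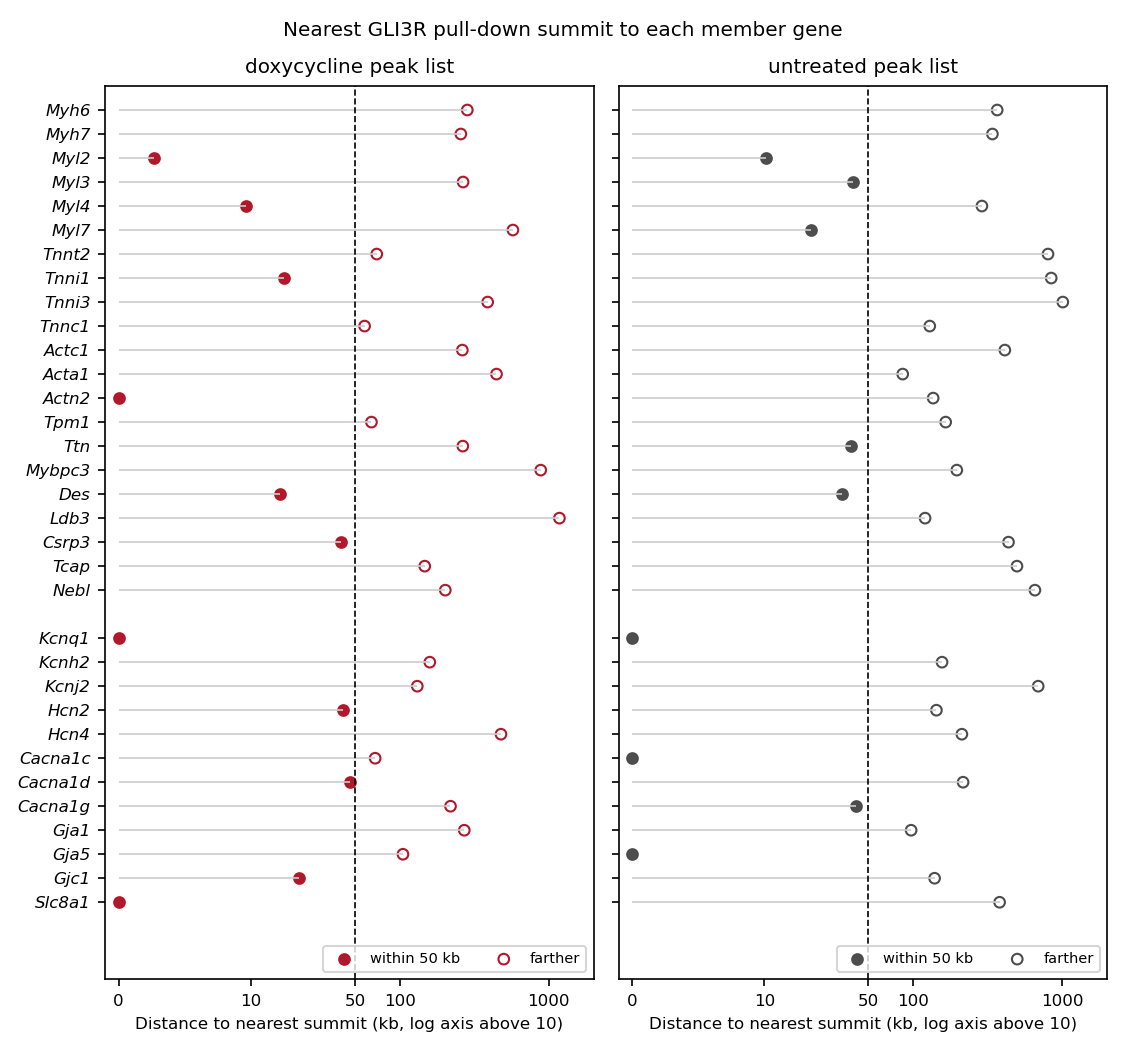
Distance from each of the 33 genes to the nearest summit of the doxycycline list (left) and of the untreated list (right), in kb on an axis that is linear to 10 kb and logarithmic above, with the sarcomere genes above the gap and the conduction genes below it. Filled points lie within the dashed 50 kb limit, 11 with doxycycline and 9 without, and open points lie farther away.

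The peaks near these genes were mostly small. Pileups, meaning fragments stacked over a summit and solved from deposited fold and p, numbered 5 to 15 at the 14 doxycycline peaks and 4 to 7 at the 10 untreated peaks, with medians of 7 and 4. Whole lists had medians of 7 fragments with doxycycline and 5 without. The smallest pileup a list contains was 5 fragments with doxycycline and 4 without, and it was found at 3 of the 14 doxycycline peaks (26.1% of that whole list) and 6 of the 10 untreated peaks (34.8% of that list). A pileup of 5 fragments has an exact 95% Poisson interval of 1.62 to 11.7, for counting error alone, and one of 4 an interval of 1.09 to 10.2. The 15 fragments of the strongest peak, near Gjc1, had an interval of 8.40 to 24.7, which overlaps those of the other doxycycline peaks near these genes. With a −log10 q of at least 5, summits remained at 5 genes with doxycycline (Myl2, Des, Csrp3, Hcn2 and Gjc1) and at 0 without treatment, against 8.52% and 2.0% of all genes. With at least 5 fragments required in both lists, a limit chosen after the values were seen, the counts were 11 with doxycycline and 3 without (Myl3, Cacna1c and Cacna1g), against 20.3% and 12.8% of all genes. Every doxycycline peak has at least 5 fragments, so this limit could lower only the untreated count, and no difference between conditions is read from it. The libraries' total fragments were not analysed here, so an equal limit need not mean the same in both lists. Pileups and folds are compared within a list only.

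**Figure D2:**
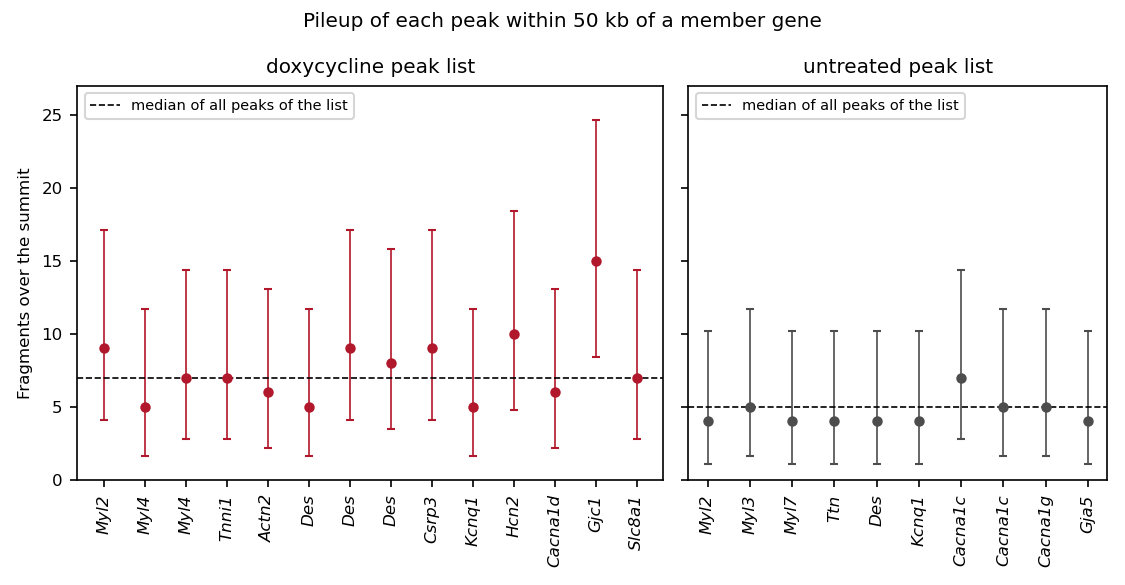
Fragments over the summit of each peak within 50 kb of a member gene, for the doxycycline list (left, 14 peaks) and the untreated list (right, 10 peaks). Points are single peaks, bars are exact 95% Poisson intervals for counting error, and the dashed lines are the medians of the whole lists, 7 and 5 fragments, and Gjc1 has the highest point at 15.

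Of the 8 genes of the thick filament, 2 lay near doxycycline peaks and 4 near untreated peaks, against 20.3% and 19.1% of all genes. Myl2, the regulatory light chain of the ventricle, had, of the doxycycline peaks outside a member gene, the one closest to it. That peak (chromosome 5, 122089926 to 122090074) was 2.66 kb upstream of the gene's first start site, was enriched 7.31-fold with a −log10 q of 6.61, and had 9 fragments. Its untreated peak (122082307 to 122082441) was 10.3 kb upstream, at 3.93-fold with a −log10 q of 1.48 and 4 fragments. Of the doxycycline list 20.6% of peaks had a −log10 q at least as high as the first, and of the untreated list 98.8% had one at least as high as the second. Both peaks lay outside every annotated gene, and Myl2 was the nearest protein-coding gene to each. The 250 bases before that start site, shown because no listed start site of a member gene lay closer to a summit, hold no peak and no GLI motif of the kind described below, so no letter is capitalised (RefSeq, GRCm38.p6, plus strand, chr5:122092474-122092723).
Myl2: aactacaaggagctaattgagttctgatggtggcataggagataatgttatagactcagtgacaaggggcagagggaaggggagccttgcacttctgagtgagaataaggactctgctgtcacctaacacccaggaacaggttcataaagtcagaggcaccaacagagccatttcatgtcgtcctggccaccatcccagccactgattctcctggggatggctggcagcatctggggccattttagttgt

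Myl4, the essential light chain of the atrium and of the embryonic heart, had 2 doxycycline peaks and no untreated one. The first (chromosome 11, 104536285 to 104536424) was 9.66 kb upstream of the gene and inside Cdc27, a subunit of the anaphase-promoting complex, with 4.39-fold enrichment and 5 fragments. The second (104617356 to 104617523) was 30.2 kb downstream and inside Itgb3, which encodes integrin beta 3, with 5.85-fold enrichment and 7 fragments. Myl7, Myl3 and Ttn had no doxycycline summit nearer than 575 kb, 266 kb and 265 kb, and 1 untreated summit each within 50 kb. Myl7, the atrial regulatory light chain, had a 3.93-fold untreated peak of 4 fragments 20.6 kb upstream. Myl3, the ventricular essential light chain, had a 4.72-fold untreated peak of 5 fragments 39.6 kb downstream (chromosome 9, 110809331 to 110809486), nearer to Prss44. Ttn, the giant spring protein titin, had a 3.93-fold untreated peak of 4 fragments 37.9 kb downstream (chromosome 2, 76665979 to 76666122), inside Fkbp7. Each of the 4 light chain genes had a summit in at least 1 list, against 7423 of 21631 protein-coding genes. Only Myl2 had one in both, against 5.03% of all genes. Myh6 and Myh7 sit side by side on chromosome 14, and the doxycycline summit nearest to them, at 284 kb and 257 kb, was the same 4.39-fold peak. Their nearest untreated summit was 366 kb and 340 kb away. Mybpc3, which tethers myosin and is a frequent cardiomyopathy gene, was 884 kb from a doxycycline summit and 196 kb from an untreated one.

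Of the 7 genes of the thin filament, 1 was near a doxycycline peak and 0 were near an untreated one, against 20.3% and 19.1% of all genes. The 1 gene was Tnni1, the slow skeletal troponin I that the embryonic heart also uses. Its peak (chromosome 1, 135766129 to 135766392) was 16.7 kb upstream of the gene interval and inside Phlda3, at 5.85-fold, a −log10 q of 4.17 and 7 fragments. Tnnt2 is the neighbour of Tnni1 on chromosome 1, and the same peak was its nearest doxycycline summit, at 70.0 kb, beyond the limit. Calcium-binding troponin C (Tnnc1) and tropomyosin (Tpm1) also lay just beyond it, at 58.0 kb and 64.5 kb from a 5.85-fold and a 5.72-fold doxycycline peak. Cardiac actin (Actc1), skeletal actin (Acta1) and adult cardiac troponin I (Tnni3) were 263 kb, 446 kb and 389 kb from a doxycycline summit. Within 100 kb the doxycycline count was 4 of the 7 thin filament genes, against 31.7% of all genes, beside 2 of 8 thick filament genes and 3 of 6 Z-disc and desmin genes, so the order of these groups at 50 kb did not hold at 100 kb. The untreated count of thin filament genes within 100 kb was 1 (Acta1), against 30.6% of all genes. Untreated summits lay between 84.9 kb (Acta1) and 1010 kb (Tnni3) from the thin filament genes.

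Among the 6 genes of the Z-disc and the desmin filament, 3 were near a doxycycline summit and 1 near an untreated one. Of all genes, 20.3% and 19.1% were. Des, which encodes desmin, the intermediate filament that links Z-discs to each other, had the most peaks of all 33 genes, with 3 doxycycline peaks and 1 untreated one. Among the 33, Des and Myl4 had 2 or more doxycycline summits and Cacna1c 2 untreated ones, as 3.6% and 2.77% of all protein-coding genes did. The strongest of the 3 (chromosome 1, 75344450 to 75344616) was 15.8 kb upstream, outside any gene and with Des as the nearest protein-coding gene, at 7.25-fold, a −log10 q of 6.60 and 9 fragments. Another (75393018 to 75393173) was 24.5 kb downstream and inside Speg, a kinase gene of striated muscle, at 6.58-fold and 8 fragments. The weakest (75318281 to 75318431) was 41.9 kb upstream and 0.69 kb from Dnpep, at 4.12-fold and 5 fragments. The untreated peak (75326971 to 75327124) was 33.3 kb upstream, also nearer to Dnpep, at 3.93-fold and 4 fragments. The 250 bases before the Des start site are shown because no other member has as many peaks around it. They hold no summit and no GLI motif, so none is capitalised (RefSeq, GRCm38.p6, plus strand, chr1:75360042-75360291).
Des: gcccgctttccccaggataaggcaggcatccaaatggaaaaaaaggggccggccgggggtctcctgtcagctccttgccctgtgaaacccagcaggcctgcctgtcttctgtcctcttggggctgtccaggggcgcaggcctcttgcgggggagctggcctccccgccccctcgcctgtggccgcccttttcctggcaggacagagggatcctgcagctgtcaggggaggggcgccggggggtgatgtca

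Actn2, the alpha-actinin that crosslinks actin at the Z-disc, was the only sarcomere gene with a summit inside it. The doxycycline peak (chromosome 13, 12308204 to 12308341) lay 32.5 kb from the start site, at 5.12-fold with a −log10 q of 3.07 and 6 fragments. The nearest untreated summit was 136 kb away, at 27.1-fold and 38 fragments. Csrp3, the muscle LIM protein of the Z-disc, had a doxycycline peak 40.0 kb upstream (chromosome 7, 48887960 to 48888116), at 7.10-fold with a −log10 q of 6.31 and 9 fragments. E2f8, a cell cycle transcription factor gene, was nearer to that peak, at 6.0 kb. Ldb3 and Tcap, which encode further Z-disc proteins, and Nebl, which encodes nebulette, had none within 50 kb. Their nearest doxycycline summits were 1180 kb, 147 kb and 202 kb away, and their nearest untreated summits 120 kb, 497 kb and 656 kb.

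Within 50 kb, doxycycline summits were found at 5 of the 12 conduction genes and untreated summits at 4, with Kcnq1 in both counts. They were found at 20.3% and 19.1% of all genes. The connexin gene Gjc1 lay near the strongest peak of the whole set. This doxycycline peak (chromosome 11, 102778251 to 102778738) reached 11.7-fold with a −log10 q of 15.4 and 15 fragments, and 4.29% of that list was as strong or stronger. It was 20.9 kb from Gjc1, which encodes connexin 45 of the embryonic heart and the conduction nodes, and it lay inside Adam11. Gja5, the atrial and Purkinje connexin, was 105 kb from its nearest doxycycline summit, a 10.6-fold peak, and had an untreated summit inside the gene (chromosome 3, 97048609 to 97048756), in a stretch that also carries the lncRNA gene 4930573H18Rik, at 3.93-fold and 4 fragments. Gja1, the connexin of working ventricular muscle, was 271 kb from a doxycycline summit and 96.7 kb from an untreated one.

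Of the 3 calcium channel genes, doxycycline peaks lay near 1 and untreated peaks near 2, against 20.3% and 19.1% of all genes. Cacna1c, the main L-type calcium channel of the heart, had no doxycycline summit within 50 kb, with the nearest at 68.3 kb, and held 2 untreated peaks inside its 610 kb interval. The stronger of the untreated peaks (chromosome 6, 118668487 to 118668651) was enriched 6.29-fold with a −log10 q of 4.81 and 7 fragments, the highest value among the 10 untreated peaks, and the other (118715604 to 118715780) 4.72-fold with 5 fragments. Cacna1d, the L-type channel of the sinus node, had a doxycycline peak 46.4 kb upstream (chromosome 14, 30537517 to 30537654), at 5.12-fold and 6 fragments, which lay nearer to the mRNA decapping gene Dcp1a. Cacna1g, a T-type channel of pacemaker cells, was 219 kb from a doxycycline summit and had an untreated peak 41.4 kb away (chromosome 11, 94366951 to 94367131) inside Abcc3, at 4.72-fold and 5 fragments. Slc8a1, the sodium-calcium exchanger that extrudes calcium after each beat, held a doxycycline peak inside its 365 kb interval (chromosome 17, 81493125 to 81493264), at 5.85-fold with a −log10 q of 4.17 and 7 fragments, 245 kb from the start site. Its nearest untreated summit was 380 kb away.

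Of the 3 potassium channel genes, Kcnq1 alone was near a peak, in both lists, against 20.3% and 19.1% of all genes. This gene of the slow delayed rectifier held 1 doxycycline peak (chromosome 7, 143306217 to 143306361) at 4.30-fold and 5 fragments and 1 untreated peak (143158713 to 143158874) at 3.93-fold and 4 fragments. Both pileups were the smallest of their list. Kcnh2, the rapid delayed rectifier, was 159 kb from a doxycycline summit and 156 kb from an untreated one. For Kcnj2, the inward rectifier of the resting potential, the distances were 131 kb and 690 kb. Of the pacemaker channel genes, Hcn2 had a doxycycline peak 41.4 kb downstream (chromosome 10, 79777338 to 79777594), at 8.04-fold with a −log10 q of 7.95 and 10 fragments, inside the follistatin-like gene Fstl3. Hcn4, the pacemaker channel of the sinus node, had none within 50 kb, with the nearest summits at 478 kb (doxycycline) and 212 kb (untreated).

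Many of these peaks lay closer to a gene outside the group. Of the 14 doxycycline peaks, 3 were inside a member gene, 5 (those 3 included) had a member as the nearest protein-coding gene, 6 were inside another gene, and 3 were outside all genes but nearer to another. For the 10 untreated peaks the same counts were 4, 5 (those 4 included), 3 and 2. All 4 untreated peaks inside a member were at conduction genes. Inside the gene, 3 of 33 genes had a summit in each condition, against 6.24% of all genes with doxycycline and 6.03% without. Where the promoter table gives a strand, 7 doxycycline peaks were upstream and 3 downstream, and 3 untreated peaks were upstream and 2 downstream. A peak within 50 kb is not thereby assigned to the gene.

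**Figure D3:**
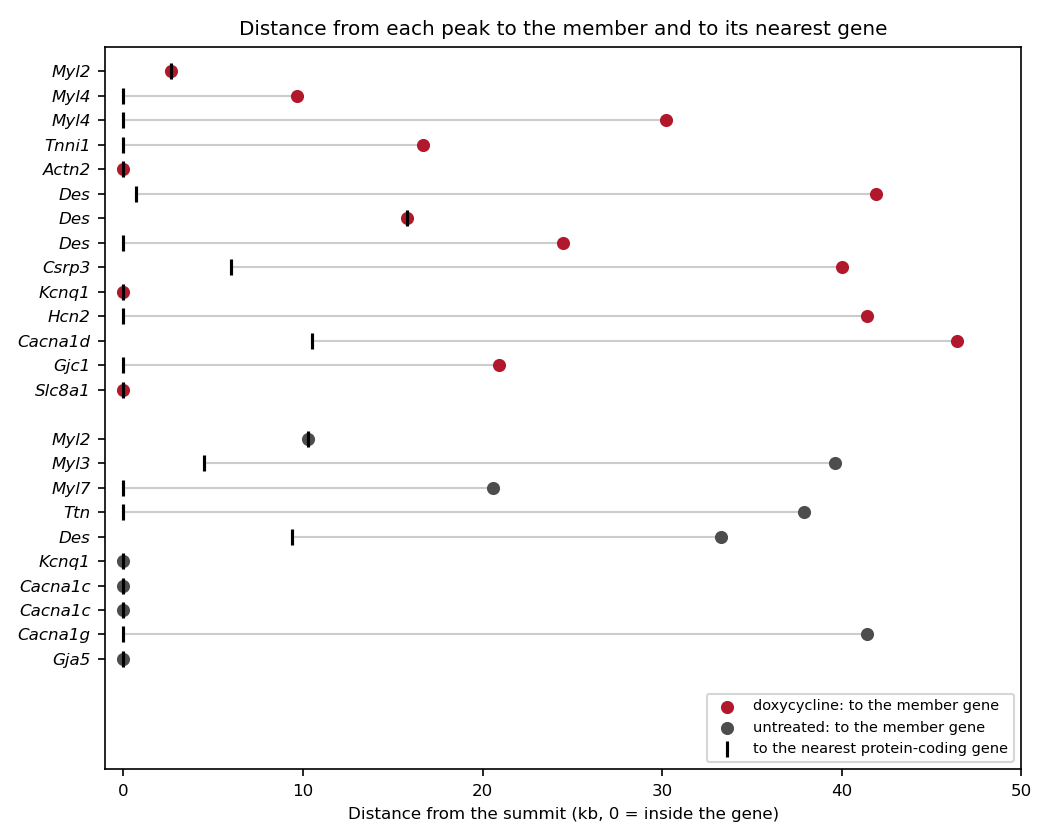
Distance in kb from each summit to the member gene (points, doxycycline above and untreated below) and to the nearest protein-coding gene (vertical marks). A point on its mark is a peak for which the member is the nearest gene, which holds for 5 of 14 doxycycline and 5 of 10 untreated peaks.

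Gene length sets how much sequence a 50 kb window covers, and the 33 genes reach 610 kb (Cacna1c). Their median length was 21.2 kb (18.4 kb for sarcomere and 36.2 kb for conduction genes), against 17.3 kb for all genes. The 6 members of 100 kb or more gave 3 with a doxycycline summit and 3 with an untreated one, and 37.3% and 41.4% of all genes of that length did. Those of 10 to 30 kb, 13 in number, gave 5 and 2, against 18.0% and 15.2% of all genes of that length. Of the 8 members under 10 kb, doxycycline summits lay near Des and untreated summits near 3 (Myl3, Myl7 and Des), against 15.6% and 13.4%. Merged into 31 windows, the surroundings of the 33 genes spanned 6.16 Mb and held 2.27 doxycycline and 1.62 untreated peaks per Mb. The windows of all protein-coding genes held 1.55 and 1.65 per Mb. Around the sarcomere genes there were 3.01 doxycycline and 1.67 untreated peaks per Mb, and around the conduction genes 1.58 of each. These densities rest on 9 and 5 peaks around the sarcomere genes and on 5 and 5 around the conduction genes, and were not tested.

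**Figure D4:**
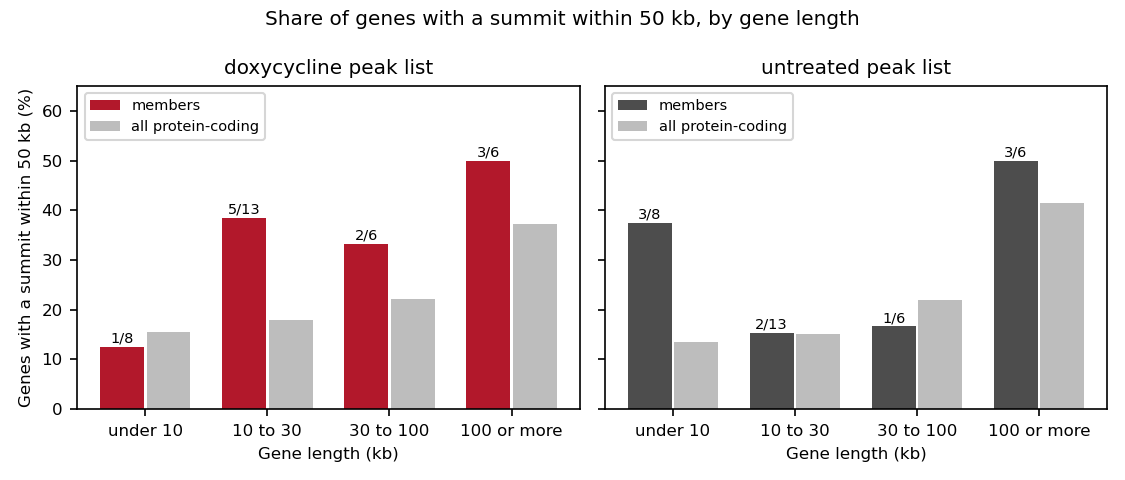
Percent of genes with a summit within 50 kb by gene length in kb, for the 33 members (coloured bars, with counts) and all protein-coding genes (grey bars), in the doxycycline list (left) and the untreated list (right). Among all genes the share climbs with length, to 37.3% and 41.4% at 100 kb or more, where 3 of 6 members have a summit in each list.

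Further contractile and channel genes were counted in the same way. Of 32 other cardiac contractile and channel genes, doxycycline summits lay near 10 (31.2%) and untreated summits near 8. Their strongest doxycycline peaks were at Kcnj11, a pore subunit of the ATP-sensitive potassium channel (11.7-fold, 28.6 kb away, inside the gene of its partner subunit, Abcc8), and at Ankrd1, a stress-responsive titin-binding protein (9.73-fold, 0.728 kb from the gene). Xirp1, Kcnd2 and Cacnb2 had doxycycline peaks of 6.58-fold each. Their strongest untreated peaks were inside Myoz2 (7.40-fold), which encodes a Z-disc calcineurin binder, and 37.4 kb from Kcna5 (7.07-fold), an atrial potassium channel. Of 20 contractile genes of skeletal and smooth muscle, doxycycline summits lay near 6 (30.0%) and untreated summits near 2 (10.0%). The neighbouring skeletal troponin genes Tnni2 and Tnnt3 shared a 15.3-fold doxycycline peak of 20 fragments (chromosome 7, 142457886 to 142458119), 13.6 kb and 40.8 kb away and 0.216 kb from Lsp1. Myl9, a smooth muscle light chain, had a 9.73-fold doxycycline peak 39.1 kb away, and the untreated peaks were inside Neb (9.43-fold) and near Smtn (6.66-fold). Of 20 neuronal channel and exchanger genes, 6 (30.0%) had a doxycycline summit, among them Cacna1a (7.31-fold, inside the gene), and 5 an untreated one, led by Scn1a (7.07-fold, inside the gene). The share among the 33 members with doxycycline, 33.3%, stood beside 30.0 to 31.2% in the 3 further lists and 20.3% of all genes. Without treatment the members' share was 27.3%. It was 25%, 10.0% and 25% in the cardiac, muscle and neuronal lists, and 19.1% among all genes. Median gene length was 21.2 kb for the members, and 49.5 kb, 19.6 kb and 123 kb for the cardiac, muscle and neuronal lists. Around these lists there were 1.96, 3.9 and 1.92 doxycycline peaks per Mb, beside 2.27 around the members. Untreated peaks per Mb were 1.51, 0.866 and 1.73, beside 1.62. These differences were not tested.

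**Figure D5:**
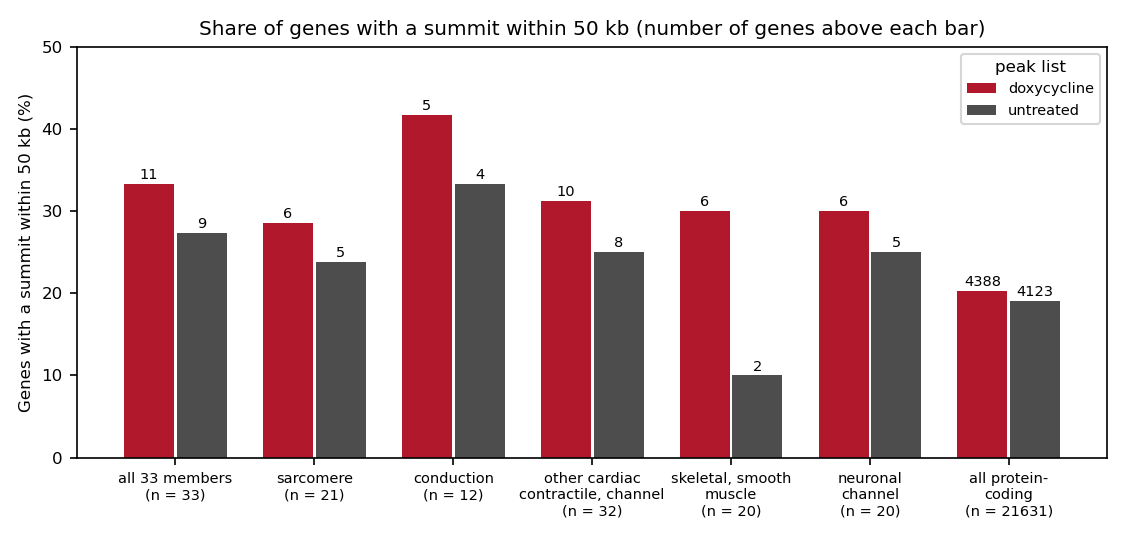
Percent of genes with a summit within 50 kb in the doxycycline list (red, left of each group) and the untreated list (grey), for the 33 members, their sarcomere and conduction subsets, 3 related gene lists and all protein-coding genes. Numbers above bars are genes, and the doxycycline shares of the 3 related lists, 30.0 to 31.2%, are near the 33.3% of the members. Median gene length differs between the lists.

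Sequence before the start sites was searched for the GLI consensus, GACCACCCA, and its reverse complement TGGGTGGTC, in the 250 bases before each RefSeq start site of the 29 members that have an entry (41 start sites). No summit of either list lay in the promoter entry of any of these start sites, which runs 50 bases past the start, against 0.323% of 21045 promoters of all genes with doxycycline and 0.0143% without. None held the exact motif, which 0.162% of all promoters held. With 1 mismatch allowed, 4 start sites of 3 genes (Tnnt2, Ldb3 and Nebl) held it, or 9.76%, against 5.85% of all promoters. None of these 3 genes had a summit within 50 kb in either list, and neither did 65.7% of all protein-coding genes. The matches are shown with up to 10 bases on each side and the match in capitals, read along the gene's strand. Tnnt2 lies at chr1:135836851-135836879 on the plus strand, Ldb3 at chr14:34588808-34588836 and Nebl at chr2:17526362-17526380, both on the minus strand. The site in Tnnt2 begins 128 bases before a start site and differs from the consensus by C4T. Those in Ldb3, 145 and 219 bases before its start sites, and in Nebl, 250 bases before one, match the reverse complement and differ by C3A. Positions are counted from 1 at the 5′ end of GACCACCCA.
Tnnt2: ttaggttaagGACTACCCAatcctttctt
Ldb3: cccttggggaTGGGTGTTCtgggtgcttg
Nebl: TGGGTGTTCagggtacctg

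The promoter table was matched by symbol. Tcap, Kcnq1, Cacna1g and Gjc1 had no entry in it, so the sequence before their start sites was not searched.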

How the data were processed

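Streptavidin pull-downs were sequenced in 4 libraries with 2 inputs. Only the doxycycline libraries came from cells in which the tagged GLI3R had been turned on. The submitters' processing notes list MACS2 2.1.1, SAMtools 1.5 and Bowtie2 2.3.2 with mm10. No source used here gives settings or says if pull-downs were pooled or inputs used as controls. Samples were grouped by their titles, which name GLI3R where the treatment text names GLI1. The fold enrichment at each summit is a ratio deposited by the authors. The −log10 p and −log10 q values were also deposited by the authors. The deposited score, 10 times −log10 q without decimals, was not used further. These are values of single peaks and describe or rank peaks within 1 list. Depth per library was not analysed here, and intervals cover counting error only.

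Rows sharing an interval were merged with the best summit kept (3725 doxycycline rows to 3640 peaks, 4428 untreated rows to 4379). Pileups were solved by taking the fold as (pileup + 1) / (expectation + 1) and p as the Poisson chance of a larger pileup, with tolerance 0.01 in −log10 p. Distances run from summit to the gene interval on GRCm38.p6, the assembly of mm10, and are 0 inside it. Exons and introns were not analysed here. No test was made, since each condition has 1 list. Alternatives were the top 1000 peaks (ties in deposited order), other distances, −log10 q from 5 up and no overlapping peaks. Others were the nearest gene only, without a distance limit, and all rows. Added later were at least 5 fragments and 1 gene per neighbourhood of 100 kb. Each member with a summit is named with its peaks, the others by distance, and of each related list the strongest, except a few items not reported here. The members, lists and role groups were chosen with earlier results of these data known. In a check on the set of 21631 genes, all of 94 summits planted within 50 kb beyond the end of a sampled gene were found. Of 2000 pileups simulated with the formulas above, 2000 were recovered, which checks the solving step only. The work used matplotlib 3.10.9, scipy 1.17.1, pandas 2.3.3 and numpy 2.4.6 under Python 3.11.15.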

Additional observations from a re-analysis of the deposited data

How the results depend on the processing

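No paired analysis was possible because peaks came as 1 list for a condition, without replicate columns, and for the same reason no replicate could be left out. Counts are doxycycline first, then untreated, then their difference. Brackets hold the shares of all protein-coding genes, doxycycline then untreated. The same shares stand beside the sarcomere and conduction counts below. For all 33 genes they were 11, 9 and 2 (20.3% and 19.1%). Within 10 kb they were 5, 3 and 2 (9.66% and 8.7%), and within 100 kb 15, 11 and 4 (31.7% and 30.6%). Inside the gene they were 3, 3 and 0 (6.24% and 6.03%). Among the top 1000 peaks they were 5, 1 and 4 (7.12% and 4.91%). At a −log10 q of 5 or more they were 5, 0 and 5 (8.52% and 2.0%). With the nearest gene only, which sets no distance limit, they were 8, 5 and 3 (12.5% and 13.5%). The 8 include Tpm1, Kcnj2 and Gja1, whose nearest doxycycline summits lay 64.5 kb, 131 kb and 271 kb away. The 5 include Gja1, whose nearest untreated summit lay 96.7 kb away. With at least 5 fragments, which no doxycycline peak misses, they were 11, 3 and 8 (20.3% and 12.8%). For sarcomere genes, 6, 5 and 1 became 3, 0 and 3 within 10 kb, 9, 6 and 3 within 100 kb, and 1, 0 and 1 inside the gene. They were 3, 0 and 3 among the top 1000 peaks and the same at a −log10 q of 5 or more, with the nearest gene only 4, 1 and 3, and with at least 5 fragments 6, 1 and 5. For conduction genes, 5, 4 and 1 turned to 2, 3 and −1 both within 10 kb and inside the gene. They were 2, 1 and 1 among the top 1000 peaks, and 2, 0 and 2 at a −log10 q of 5 or more. With the nearest gene only, at any distance, they were 4, 4 and 0, and with at least 5 fragments 5, 2 and 3. Peaks near the 33 genes numbered 14 and 10, then 5 and 4 within 10 kb and 6 and 0 at a −log10 q of 5 or more. Related genes at a −log10 q of 5 or more numbered 6 and 2 in the other cardiac list, 4 and 2 in the skeletal and smooth muscle list, and 2 and 1 in the neuronal list. Promoters with the motif numbered 0 when exact and 4 with 1 mismatch. Stricter limits keep fewer peaks by construction. The cause of the reversed order at conduction genes was not tested. Leaving out overlapping peaks could not change the gene counts, since no peak near the 33 genes overlapped one of the other condition. Counting 1 gene per neighbourhood could not either, since in neither joined pair (Myh6 with Myh7, Tnnt2 with Tnni1) were both genes near a summit. Using all rows changed neither peak count. Of 96 alternative values, 44 stayed within 1.5 times the reported one, and these include the values that could not change. With pileups of 5 to 15 fragments with doxycycline and 4 to 7 without, absence from a list shows only that a threshold was missed.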
